A study of Arabidopsis thaliana with 18 samples.

Results

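The serine carboxypeptidase-like (SCPL) genes of Arabidopsis thaliana were examined in roots of seedlings grown with or without iron (Fe). The members were all genes with an SCPL symbol and a number in the platform annotation of the array and with a probe set that names no other gene. There were 29 such genes, each with 1 probe set, among 13356 genes with a probe set of their own and 22746 probe sets tested. The RefSeq gene table holds 49 genes with such symbols, and the other 20 had no probe set of their own by this annotation. SCPL8 and SCPL24, known as SNG1 and BRS1, carry other names and were also not among the members.

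Serine carboxypeptidases are hydrolases of the secretory pathway and the vacuole that use a serine in a catalytic triad to remove the last amino acid of a peptide. The plant family has kept that fold, but some members are acyltransferases: they move an acyl group from a glucose ester to another molecule, as SNG1 does when it makes sinapoylmalate. BRS1 acts in brassinosteroid signalling, and for most other members a substrate is not known.

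Transcripts were measured on 18 Affymetrix ATH1 arrays of 1 colour, with 3 biological replicates per the labels in each of 6 groups. The genotypes, all in the Col-0 strain, were the Col-0 wild type, a line overexpressing the cucumber ubiquitin-conjugating enzyme gene CsUBC13 (CsUBC13-OE), and a ubc13A mutant (ubc13-/-). Seedlings 10 days old were moved to ES medium with FeEDTA (with Fe) or to the same medium with none added (without Fe), and roots were harvested 3 days later. The labels do not state the promoter of the transgene, the number of independent lines or the nature of the mutation. The ubc13A samples are numbered in a block apart from those of Col-0 and CsUBC13-OE. If they were processed separately, an effect of that cannot be told apart from a difference of ubc13A from Col-0 at the same supply.

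The deposited signals had array medians from 189.9 to 211.3, and arrays correlated with each other at 0.958 to 0.991 on the log2 scale. The targeted gene could be read only through a probe set shared by UBC35 and UBC36, whose mean signal was 3782 ± 478 in Col-0 with Fe, 3615 ± 476 in Col-0 without Fe, 2879 ± 484 in ubc13A with Fe and 2725 ± 312 in ubc13A without Fe (SD, n = 3). It was 4089 ± 210 with Fe and 4233 ± 433 without Fe in CsUBC13-OE, and it does not check the cucumber transgene, which was not measured. The difference of ubc13A from Col-0 was -0.40 on the log2 scale at both supplies and passed the test at neither (adjusted p = 0.393 with Fe and 0.308 without Fe). All 6 measured genes of a list of 10 known Fe-responsive genes rose without Fe in every genotype, among them BHLH101, a transcription factor of the Fe deficiency response, by 4.19 on the log2 scale as an average of the genotypes. Listed genes are called measured here if a probe set names them alone in the annotation. The others may be on probe sets that name no gene or several. The root hair expansin EXPA7, which alone of 12 listed root cell type markers had such a probe set, had group means from 514 to 726.

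Differences are given on the scale of log2(signal + 16), without Fe minus with Fe unless stated, and are called at an adjusted p under 0.05 over all 22746 probe sets. Adjusted p-values are from limma with Benjamini-Hochberg adjustment. Levels are signals in linear units, and the signal of one probe set says nothing of its level against another. In whole roots, fewer cells of a type and less RNA per cell cannot be told apart.

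Of the 29 genes, 16 lay above the dimmest 40% of all probe sets, a bound at a mean signal near 113 after removing the pseudocount, and 13 lay below it. The 13 were SCPL16, SCPL18, SCPL21, SCPL22, SCPL23, SCPL30, SCPL32, SCPL33, SCPL38, SCPL41, SCPL43, SCPL44 and SCPL47. SCPL16 and SCPL18, relatives of the known acyltransferases, gave signals of 3.4 to 66.9 and 23.1 to 95.5. SCPL41 stayed between 1 and 22.9 and SCPL38 between 1.2 and 32.3. The carboxypeptidase Y relative SCPL47 gave 3.8 to 59.5. The signals over all arrays were 1.9 to 74.3 for SCPL21, 1.1 to 49.5 for SCPL22, 1.7 to 60.2 for SCPL23, 5.2 to 46.5 for SCPL30 and 26.9 to 138 for SCPL32. They were 4.7 to 45.7 for SCPL33, 14.4 to 88.2 for SCPL43 and 11.3 to 47.6 for SCPL44, so single arrays of these dim genes differed several-fold. None of these 13 was called in any comparison with all arrays in the fit as deposited; SCPL23 and SCPL30 were each called for the average Fe response in 1 fit with a single array dropped. Among the 16 brighter genes, those not described one by one were SCPL25 at 194 to 316, SCPL27 at 396 to 674, SCPL28 at 138 to 249, SCPL45 at 815 to 1244.5, SCPL46 at 132 to 256 and SCPL50 at 296 to 481.5. None of these 6 was called in that fit, and SCPL45 was called for the average Fe response under other settings given below.

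Without Fe, SCPL20 rose and SCPL31 fell in each of the 3 genotypes, and a few other family members changed by smaller amounts. In each genotype 3 of 29 genes (10.3%) were called, against 4.26% of all probe sets in Col-0, 4.33% in CsUBC13-OE and 3.72% in ubc13A. As an average of the 3 genotypes, 7 of 29 (24.1%) were called, against 14.2% of all probe sets. SCPL20 and SCPL29 were higher (2 genes, beside 5.79% of all probe sets), and SCPL26, SCPL31, SCPL34, SCPL35 and SCPL42 were lower (5 genes, beside 8.46%). With arrays centred on the median or quantile normalized, 5 were called, 2 higher and 3 lower. Calls among all probe sets were then 3056 and 3116, beside 3241 as deposited.

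**Figure D1:**
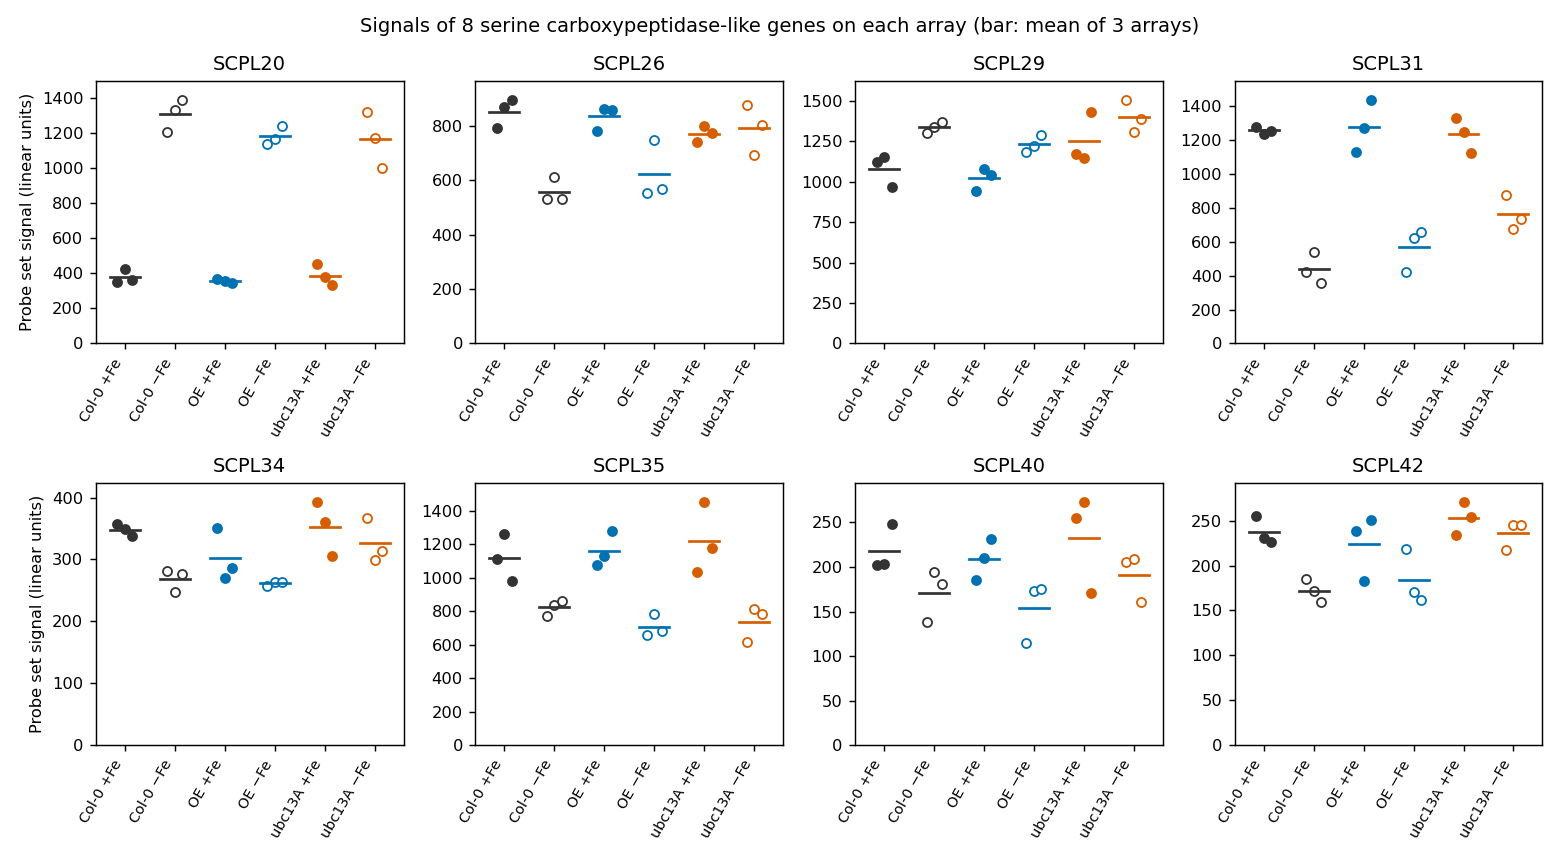
Probe set signal (linear units, axis from 0) of 8 SCPL genes on each of the 18 arrays, with the group on the x axis (OE, CsUBC13-OE). Filled points are arrays with Fe, open points arrays without Fe, and bars are means of 3 arrays; the open points of SCPL20 lie at 999 to 1387 and all filled points at 332 to 453.

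SCPL20 (AT4G12910) was the family member with the largest called change. In Col-0 its signals were 352, 422 and 360.4 with Fe and 1206, 1335 and 1387 without Fe. In CsUBC13-OE they were 369.8, 359 and 346 with Fe and 1140.2, 1169 and 1239.5 without Fe. In ubc13A they were 453, 377.5 and 332 with Fe and 1322, 1171 and 999 without Fe. All 9 arrays without Fe were above all 9 with Fe. The rise was 1.75 on the log2 scale in Col-0 (SE 0.13, 3.37-fold, adjusted p = 4.03e-07), 1.68 in CsUBC13-OE (adjusted p = 6.06e-07) and 1.55 in ubc13A (adjusted p = 1.61e-06). As an average it was 1.66 (SE 0.07, 3.16-fold, adjusted p = 3.54e-10). The response of CsUBC13-OE differed from that of Col-0 by -0.07 (95% interval -0.46 to 0.32) and that of ubc13A by -0.20 (-0.59 to 0.19), and neither difference passed the test.

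SCPL31 (AT1G11080) fell the most among the called members. In Col-0 it gave 1276, 1237 and 1255.5 with Fe and 424, 540.5 and 354 without Fe. In CsUBC13-OE it gave 1127, 1274 and 1433 with Fe and 420.3, 623 and 656 without Fe. In ubc13A it gave 1329.9, 1246 and 1125 with Fe and 878, 674 and 735 without Fe. No array without Fe reached the lowest array with Fe, and the 3 ubc13A arrays without Fe were the highest of the 9 without Fe. The fall was -1.50 in Col-0 (SE 0.18, adjusted p = 5.74e-05), -1.17 in CsUBC13-OE (adjusted p = 0.000624) and -0.69 in ubc13A (adjusted p = 0.0405), with an average of -1.12 (SE 0.10, adjusted p = 1.2e-06). The ubc13A call ended when any 1 of its arrays other than replicate 1 without Fe was left out (adjusted p from 0.0456 to 0.156 over the 6 fits), and under the settings given in the closing section.

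SCPL35 (AT5G08260) was lower without Fe in the average of the genotypes and in CsUBC13-OE and ubc13A. Its Col-0 signals were 1111, 1262.5 and 982 with Fe and 773, 838 and 860.3 without Fe. In CsUBC13-OE they were 1073, 1132 and 1279.9 with Fe and 659, 782 and 683.5 without Fe. In ubc13A they were 1032, 1451 and 1179 with Fe and 614, 812 and 786 without Fe. The 2 supplies did not overlap in any genotype. The differences were -0.43 in Col-0 (adjusted p = 0.141), -0.70 in CsUBC13-OE (adjusted p = 0.00963) and -0.71 in ubc13A (adjusted p = 0.0107), and the average was -0.61 (SE 0.08, adjusted p = 0.000108). The genotypes' responses were not shown to differ: CsUBC13-OE differed from Col-0 by -0.27 (-0.71 to 0.17) and ubc13A by -0.28 (-0.72 to 0.16). The CsUBC13-OE call ended without replicate 3 with Fe (-0.63) or replicate 1 without Fe (-0.65), and the ubc13A call without replicate 1 without Fe (-0.59).

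SCPL26 (AT2G35780) fell in Col-0. Its signals there were 794, 868.5 and 894 with Fe and 530.1, 612 and 533 without Fe. In CsUBC13-OE they were 784, 863 and 859.9 with Fe and 552, 750.1 and 568 without Fe. In ubc13A they were 741, 799 and 773 with Fe and 876, 693 and 804 without Fe. The supplies were apart in Col-0 and CsUBC13-OE and overlapped in ubc13A. The difference was -0.60 in Col-0 (SE 0.13, adjusted p = 0.0105), -0.43 in CsUBC13-OE (adjusted p = 0.0781), and 0.03 in ubc13A (95% interval -0.24 to 0.30, adjusted p = 0.937), with an average of -0.33 (SE 0.07, adjusted p = 0.00566). In CsUBC13-OE it was called with the dimmest 40% of probe sets left out (adjusted p = 0.0347), with a pseudocount of 64 (0.0477) and with trend and robust moderation (0.0389), and without replicate 2 without Fe (-0.56, adjusted p = 0.0162). The Col-0 value was not called when the 6 Col-0 arrays were fitted alone, either without (adjusted p = 0.0585) or with the replicate number as a block (the replicate block, 0.0956), and it was not called without replicate 3 with Fe (-0.56) or replicate 3 without Fe (-0.57).

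SCPL29 (AT4G30810) was the other member called higher, by 0.25 on average (SE 0.06, 1.19-fold, adjusted p = 0.0157). In Col-0 it gave 1120, 1152 and 968.5 with Fe and 1301, 1336 and 1371 without Fe. In CsUBC13-OE it gave 943, 1078 and 1043 with Fe and 1185.5, 1222 and 1290.1 without Fe. The supplies were apart in both of these genotypes. In ubc13A it gave 1168, 1147 and 1432 with Fe and 1501, 1309 and 1386 without Fe, and the supplies overlapped. No genotype alone passed the test (adjusted p = 0.167, 0.244 and 0.49 in Col-0, CsUBC13-OE and ubc13A).

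SCPL42 (AT5G42240) and SCPL34 (AT5G23210) were lower as an average and in no single genotype in the fit of all arrays. SCPL42 gave 255, 231 and 227 with Fe and 185, 171 and 159 without Fe in Col-0. It gave 238, 182 and 250.5 with Fe and 219, 170.2 and 162 without Fe in CsUBC13-OE, and 234, 270.5 and 254 with Fe and 218, 245 and 245 without Fe in ubc13A. The supplies did not overlap in Col-0 and overlapped in the other genotypes. The Col-0 difference was -0.43 (adjusted p = 0.0913), and it was called with the dimmest 40% of probe sets left out (0.0391) and with array weights (0.0255). The average was -0.26 (SE 0.08, adjusted p = 0.0305), and it was still called in 10 of 18 fits with a single array dropped.

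SCPL34 gave 357, 349 and 338 with Fe and 281, 248 and 277 without Fe in Col-0. In CsUBC13-OE it gave 350.5, 269.8 and 286 with Fe and 257, 264 and 264 without Fe. In ubc13A it gave 393, 361 and 306 with Fe and 368, 299 and 313 without Fe. The supplies were apart in Col-0 and CsUBC13-OE and overlapped in ubc13A. The average of -0.22 (SE 0.07) had an adjusted p of 0.0493, and it was called in 3 of 18 fits with a single array dropped.

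**Figure D2:**
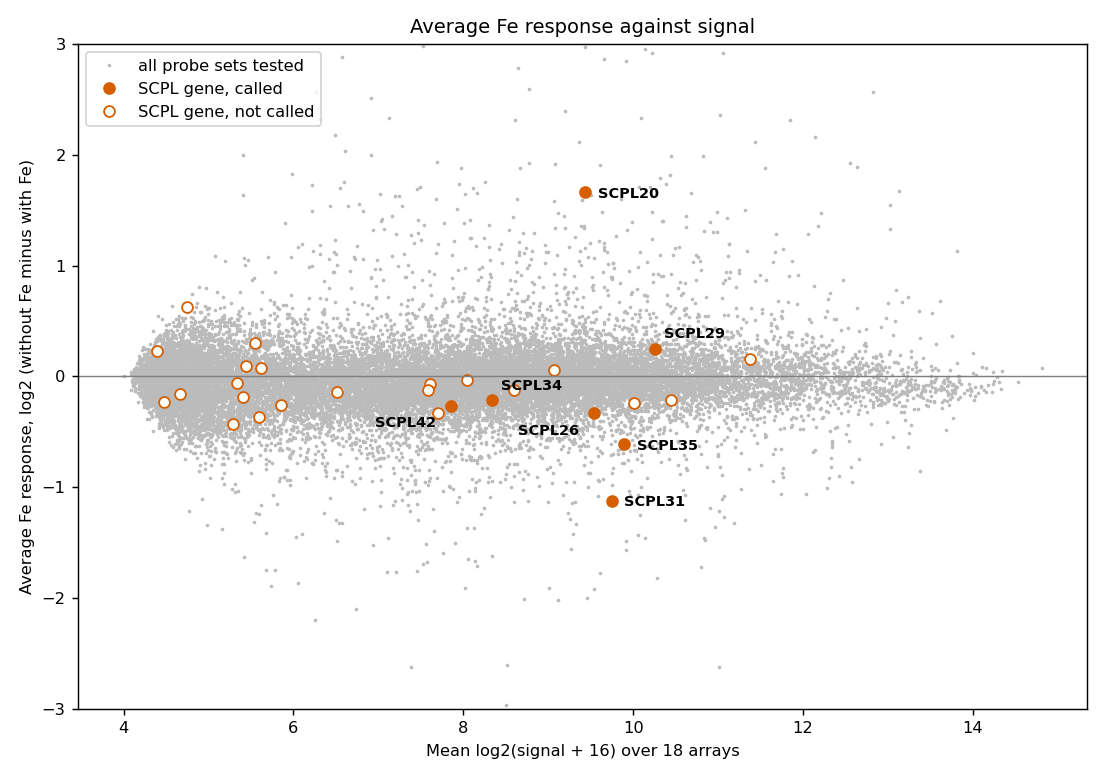
Average Fe response over the 3 genotypes (y axis, log2, without Fe minus with Fe, limited to 3 in either direction) against mean log2(signal + 16) over 18 arrays (x axis), for all probe sets tested (grey) and the 29 SCPL genes (orange, filled where called). The 7 called genes are named: SCPL20 at 1.66 and SCPL31 at -1.12 lie farthest from 0.

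The uncalled member with the smallest average p was SCPL40 (AT3G63470). It gave 202, 203 and 248 with Fe and 138, 194 and 180.4 without Fe in Col-0. In CsUBC13-OE it gave 185.5, 210 and 232 with Fe and 114, 173 and 176 without Fe. In ubc13A it gave 255, 273 and 170.5 with Fe and 205, 208.5 and 161 without Fe. The supplies were apart in Col-0 and CsUBC13-OE, and the average was -0.33 (SE 0.11, adjusted p = 0.0619). It was called in 4 of 8 other settings, namely the filter on dim probe sets (adjusted p = 0.0262), a pseudocount of 64 (0.0427), trend and robust moderation (0.0391) and the replicate block (0.0173), and without ubc13A replicate 3 with Fe (0.0193). SCPL45 followed with an average of -0.24 (SE 0.08, adjusted p = 0.0643), and it was called in these 4 settings, with array weights, and without Col-0 replicate 2 without Fe or ubc13A replicate 2 with Fe.

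SCPL49 (AT3G10410) and SCPL48 (AT3G45010), related to the vacuolar carboxypeptidase Y of yeast, were among the brighter probe sets and not called for Fe in any genotype with all probe sets and the usual moderation. SCPL49 gave 2836, 2902 and 2546.5 with Fe and 2991, 2644 and 2628 without Fe in Col-0. It gave 2774, 2259 and 1960.3 with Fe and 2633, 2495.5 and 2113 without Fe in CsUBC13-OE. In ubc13A it gave 2439, 2324 and 2619.7 with Fe and 3266, 3302 and 3260.4 without Fe. The supplies overlapped in Col-0 and CsUBC13-OE and were apart in ubc13A, where the difference was 0.41 (SE 0.13, adjusted p = 0.0961). It was called there with the dimmest 40% of probe sets left out (adjusted p = 0.0444) and with trend and robust moderation (0.0405).

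SCPL48 ranged from 938 to 1914 over the 18 arrays. In Col-0 it gave 1343, 1539 and 1281 with Fe and 938, 1516 and 1455 without Fe. In CsUBC13-OE it gave 1334, 1323 and 1588 with Fe and 1116.5, 1204 and 1379.5 without Fe. In ubc13A it gave 1914, 1609.7 and 1506.5 with Fe and 1308.5, 1340.2 and 1305 without Fe. Its supplies overlapped in Col-0 and CsUBC13-OE and were apart in ubc13A, and its average difference was -0.22 (SE 0.09, adjusted p = 0.155).

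Over the whole family the median Fe response was -0.11 in Col-0, -0.18 in CsUBC13-OE and -0.10 in ubc13A, beside -0.04 over all probe sets in each. Values below 0 were found for 19, 21 and 17 of the 29 genes in these genotypes (65.5%, 72.4% and 58.6%), beside 57.2%, 57.2% and 56.4% of all probe sets. The signals of the 2 supplies did not overlap for 11 genes in Col-0 (37.9%, beside 22% of all probe sets), 10 in CsUBC13-OE (34.5%, beside 19.8%) and 7 in ubc13A (24.1%, beside 21.8%). Of these, 8, 8 and 5 were lower without Fe, beside 12.9%, 11.6% and 12.8% of all probe sets. At an unadjusted p under 0.05 the counts were 7, 9 and 4 of the 29 genes, beside 15.4%, 14.9% and 16.7% of all probe sets. The share of the members was above that of all probe sets in Col-0 and CsUBC13-OE and below it in ubc13A. The dim members had wide intervals: the average was 0.63 for SCPL23 (95% interval 0.08 to 1.17, adjusted p = 0.126) and -0.43 for SCPL30 (-0.84 to -0.02, adjusted p = 0.165).

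**Figure D3:**
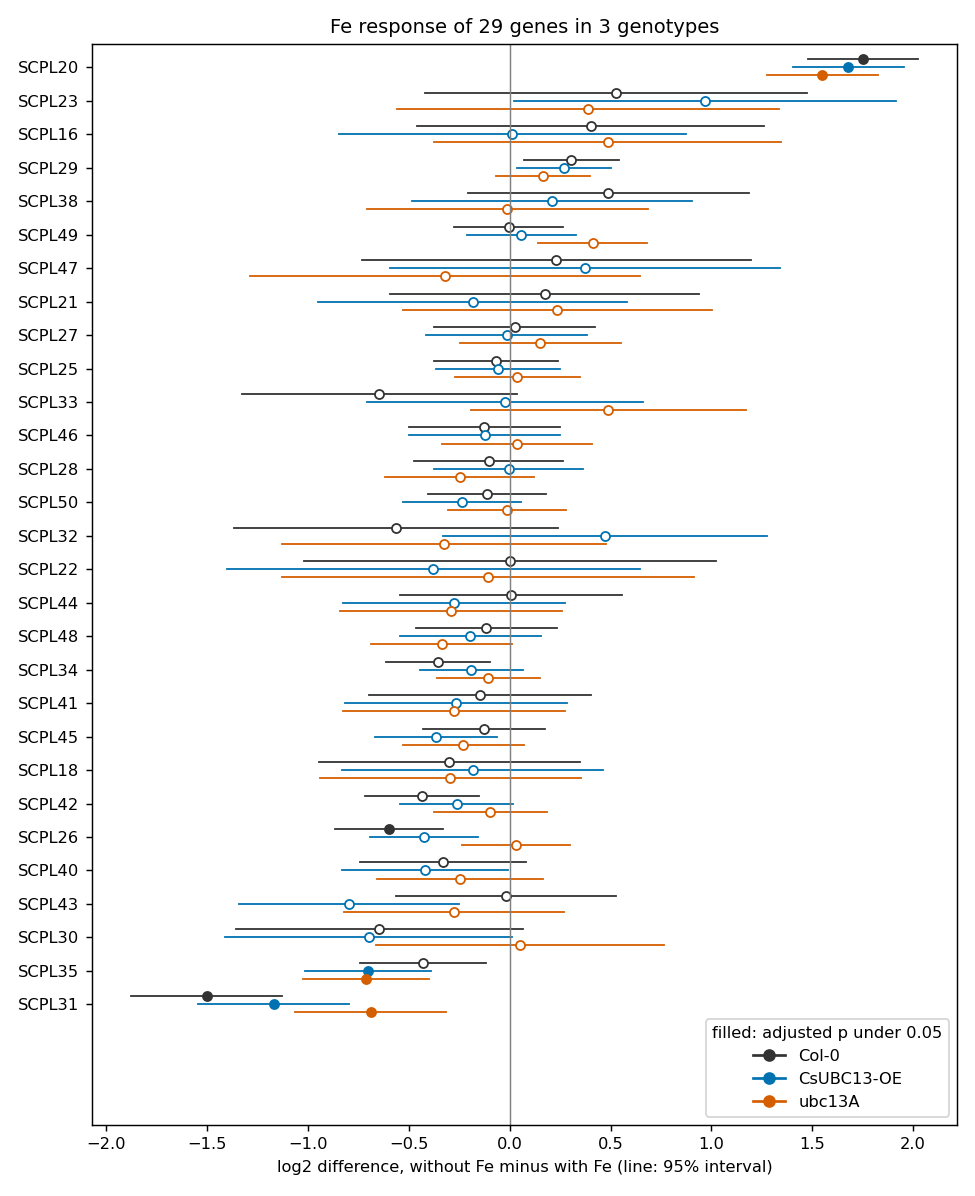
Fe response (x axis, log2 difference, without Fe minus with Fe) of the 29 SCPL genes (y axis, ordered by their average response) in Col-0, CsUBC13-OE and ubc13A. Points are estimates, lines 95% intervals, and filled points passed an adjusted p of 0.05; SCPL20 and SCPL31 are filled in all 3 genotypes, SCPL35 in 2 and SCPL26 in Col-0.

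Some members lie side by side in the genome; differences between neighbours were not tested. SCPL26 and SCPL28 are neighbours on chromosome 2 with no protein-coding gene between them, by the TAIR10.1 gene table. The average response was -0.33 for SCPL26 and -0.12 for SCPL28 (SE 0.10, adjusted p = 0.501). SCPL41 and SCPL42 are on chromosome 5 with 2 protein-coding genes between them, and SCPL41 gave no signal above 22.9. SCPL22 and SCPL23 are neighbours on chromosome 2, both dim and both uncalled.

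Some markers of shoot tissue were lower without Fe. Of 10 genes listed as shoot markers 4 had a probe set of their own by this annotation, all of them photosynthesis genes. As an average of the genotypes 3 were called lower, beside 8.46% of all probe sets. These were RCA, the Rubisco activase, by 0.66, LHCB4.1 by 0.48 and PSAE-1 by 0.47 on the log2 scale. The fourth, PRK, differed by -0.15 (adjusted p = 0.455) and was not called. In single genotypes, 2 of the 4 were called in CsUBC13-OE (RCA and LHCB4.1) and 0 in Col-0 and in ubc13A. Of all probe sets 4.33%, 4.26% and 3.72% were called in these genotypes, in that order. The summed signal of the 4 was 3290.5 to 4078 in Col-0 with Fe and 2435.5 to 2746 without Fe. It was 3778 to 4017 and 1911 to 2637 in CsUBC13-OE, and 2232 to 3140.3 and 1857 to 2544 in ubc13A. Their part in the lower SCPL signals without Fe was not tested.

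Between genotypes, limma called 0 of 29 SCPL genes at either supply. The background was as low: 0.0132% of all probe sets were called between CsUBC13-OE and Col-0 with Fe and 0.0132% without Fe, 0.0132% between ubc13A and Col-0 with Fe and 0.0484% without Fe. At an unadjusted p under 0.05 the counts of SCPL genes were 0, 0, 0 and 6, beside 2.78%, 3.48%, 9.84% and 11.1% of all probe sets. The 6 genes, for ubc13A against Col-0 without Fe, were SCPL26, SCPL31, SCPL33, SCPL34 and SCPL42, which were higher in the mutant, and SCPL44, which was lower. Signals of these 2 groups did not overlap for 8 of the 29 genes (27.6%, beside 17.7% of all probe sets), 6 of them higher in ubc13A (beside 10.3%). With Fe no SCPL gene had separate signals in ubc13A and Col-0, beside 15.9% of all probe sets. Signals of CsUBC13-OE and Col-0 were separate for SCPL21 and SCPL45 with Fe (2 genes, beside 6.59%) and for SCPL29, SCPL33, SCPL41 and SCPL46 without Fe (4 genes, beside 8.9%).

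SCPL31 had the smallest p of these. Its signals without Fe, given above, were 354 to 540.5 in Col-0 and 674 to 878 in ubc13A. The difference was 0.78 (SE 0.18, 95% interval 0.41 to 1.16, adjusted p = 0.105), and -0.03 with Fe. It was called when the dimmest 40% of probe sets were left out (adjusted p = 0.0336) or when limma's trend and robust moderation were used (adjusted p = 0.0256). Calls among all probe sets rose from 11 to 126 and 106 under these settings. SCPL26 differed by 0.49 (SE 0.13, adjusted p = 0.157) and SCPL42 by 0.42 (SE 0.13, adjusted p = 0.239). The dim SCPL33, at 8.7, 17.7 and 11.5 in Col-0 and 20, 38.9 and 45.7 in ubc13A, differed by 0.80 (SE 0.32, adjusted p = 0.358).

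**Figure D4:**
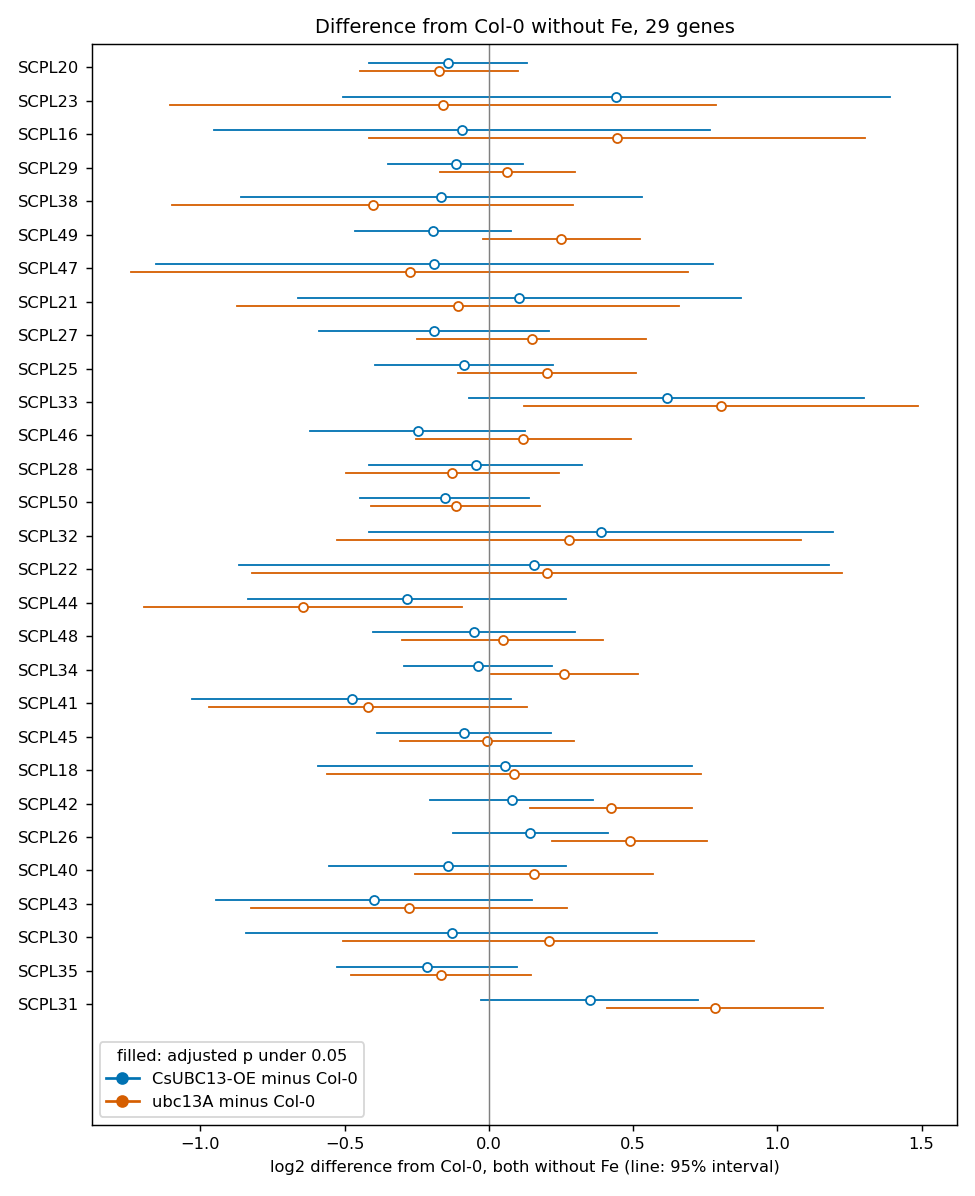
Difference from Col-0 (x axis, log2, both genotypes without Fe) of the 29 SCPL genes (y axis, same order as in the plot of Fe responses) for CsUBC13-OE and ubc13A. Points are estimates and lines 95% intervals; no point is filled, since none passed an adjusted p of 0.05, and SCPL31 in ubc13A lies at 0.78.

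The difference between the Fe response of another genotype and that of Col-0 was called for 0 of 29 SCPL genes by limma, for either genotype. Of all probe sets, 0.0044% were called for CsUBC13-OE and 0% for ubc13A. At an unadjusted p under 0.05 there was 1 SCPL gene for CsUBC13-OE (SCPL43) and 4 for ubc13A (SCPL26, SCPL31, SCPL33 and SCPL49), beside 2.66% and 5.51% of all probe sets. For SCPL31 the response of ubc13A was less negative by 0.81 (95% interval 0.28 to 1.34, adjusted p = 0.743), and that of CsUBC13-OE by 0.33 (-0.20 to 0.86). For SCPL26 the ubc13A value was 0.63 (0.25 to 1.01, adjusted p = 0.723). These values share their arrays without Fe, of Col-0 and of the other genotype, with the comparison of genotypes above, and the 0.81 of SCPL31 is its difference of 0.78 without Fe less that of -0.03 with Fe. The median SE of such a difference over the 29 genes was 0.26, beside 0.19 for a difference of 2 groups.

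Genes that work beside the known SCPL enzymes were read from lists of their pathways. Calls of these listed genes were not followed under other settings or with arrays left out. Of 18 genes of sinapate ester and phenylpropanoid synthesis 5 had a probe set of their own by this annotation. Of these 1, HCT, was called for Fe, beside 14.2% of all probe sets for the average. HCT, an acyltransferase of lignin synthesis outside the SCPL family, gave 3049, 2802 and 2178 with Fe and 8310, 6531 and 5875 without Fe in Col-0. All 9 HCT arrays without Fe, from 5875 to 8625, were above all 9 with Fe, from 2178 to 3263, and its average rise was 1.35 (SE 0.09, adjusted p = 2.06e-08). The glucosyltransferases UGT84A1, UGT84A3 and UGT84A4 and the aldehyde dehydrogenase ALDH2C4 had average differences of -0.39, -0.68, 0.19 and -0.03, with adjusted p of 0.0938, 0.0562, 0.217 and 0.813.

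UGT84A1, which makes glucose esters of hydroxycinnamic acids, the kind of acyl donor that SCPL acyltransferases use, was lower in ubc13A without Fe. Its signals there were 35.4, 36.5 and 42.8, beside 203.5, 210.5 and 143 in Col-0 and 196, 233 and 174 in CsUBC13-OE. With Fe they were 100.4, 101 and 56.9 in ubc13A and 229, 232 and 198 in Col-0. Signals of ubc13A and Col-0 did not overlap at either supply, beside 15.9% of all probe sets with Fe and 17.7% without Fe. The difference from Col-0 was -1.88 without Fe (SE 0.25, adjusted p = 0.0147) and -1.24 with Fe (adjusted p = 0.129).

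Of 8 genes of brassinosteroid receptor signalling, the pathway of BRS1, only BRL1 had a probe set of its own by this annotation. Its average difference was -0.07 (adjusted p = 0.731). Of 13 vacuolar and cell death proteases 4 had a probe set of their own by this annotation. ALPHA-VPE, a vacuolar processing enzyme, was higher by 0.42 on average (SE 0.13, adjusted p = 0.044), beside 5.79% of all probe sets called higher. It was called in no single genotype (adjusted p = 0.354, 0.243 and 0.658 in Col-0, CsUBC13-OE and ubc13A). Its supplies were apart in CsUBC13-OE and overlapped in Col-0 and ubc13A. APA1, BETA-VPE and GAMMA-VPE differed by 0.17, -0.01 and -0.22 and were not called.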

How the data were processed

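Root transcripts of 18 samples were measured on 1-colour arrays from biotin-labelled RNA, per the labels' protocols. The authors deposited a linear intensity for each probe set and array, scaled so that the 2% trimmed mean of each array was near 500.04 and not quantile normalized. No label names the summarising software. The number of arrays limits the precision.

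Of 22810 probe sets, 64 controls were set aside; 13513 named 1 gene, 503 several and 8730 none. Group means of log2(signal + 16), which understates changes of dim genes, were fitted jointly in limma 3.58.1 under R 4.3.3, using every array (12 residual degrees of freedom). P-values of each of 10 contrasts were adjusted over 22746 probe sets. Named were all called members, the uncalled ones with the smallest average p up to 8, and the brightest 3. The members and gene lists were chosen with earlier results of these data known. P-values set a difference of group means against the spread between replicates, which the groups share in the fit. Same-numbered arrays of Col-0 with and without Fe deviated together (correlations 0.26, 0.11 and 0.15), and those of the wild type and the overexpressor did so without Fe (0.30, 0.20 and 0.11). With Fe the wild type and the overexpressor gave 0.29, -0.03 and -0.02. The overexpressor with and without Fe gave 0.20, -0.06 and -0.01. For ubc13A with and without Fe they were 0.07, 0.01 and 0.09. Between ubc13A and Col-0 they were 0.06, 0.02 and -0.01 with Fe and -0.08, 0.02 and -0.02 without Fe. A pairing by replicate number was therefore not established, and the main fit used none. It treated same-numbered arrays as independent, also where they deviated together. Promoter and protein sequences were not analysed here. Alternatives were quantile normalization, median centring, other pseudocounts (1 and 64), a filter on dim probe sets, other moderation, array weights, the compared arrays alone, a replicate block and leaving out each array.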

Additional observations from a re-analysis of the deposited data

How the results depend on the processing

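The count of SCPL genes called for ubc13A against Col-0 without Fe went from 0 to 1 (SCPL31) with the dimmest 40% of probe sets left out and with trend and robust moderation. Calls among all probe sets went from 11 to 126 with that filter and to 106 with that moderation. Fits of a genotype's 6 arrays alone hold fewer samples. They gave 2 called Fe responses in Col-0, 2 in CsUBC13-OE and 1 in ubc13A, in place of 3 each. With the replicate block added they gave 2, 1 and 1. Calls among all probe sets fell too, from 970, 984 and 847 to 595, 438 and 419. With the block they fell to 405, 161 and 130. Same-numbered arrays of the 2 supplies deviated together more in Col-0 than in ubc13A, and in CsUBC13-OE only for replicate 1. For CsUBC13-OE against Col-0, both without Fe, the count was 0 with and without the block. Leaving out 1 array gave 2 to 3 called genes in Col-0, 2 to 4 in CsUBC13-OE, 2 in every such fit of ubc13A and 5 to 8 for the average. Among all probe sets these fits called 657 to 810, 689 to 959, 589 to 771 and 2691 to 3198. The average count was 5 to 9 under the other settings, beside 3056 to 3676 calls among all probe sets. The average calls of SCPL20, SCPL26, SCPL29, SCPL31 and SCPL35 remained under all of these settings and array omissions. SCPL34 lost its average call under quantile normalization (adjusted p = 0.112), median centring (0.199) and the block (0.0609), and SCPL42 under the first of these (0.0837) and the second (0.0916). SCPL31 in ubc13A was not called under median centring (0.0622), a pseudocount of 1 (0.0534), with its arrays alone (0.0853) or with the block added (0.148). SCPL35 was not called with the arrays alone in CsUBC13-OE (0.0596) and ubc13A (0.138), or with the block added (0.166 and 0.134). SCPL31 in CsUBC13-OE was called with the arrays alone (0.0442) and not with the block added (0.0632). Calls gained by SCPL23, SCPL26, SCPL30, SCPL40, SCPL42, SCPL45 and SCPL49 stand beside their values above. The causes were not tested. Values near 0 changed sign: SCPL49 in Col-0 was 0.060 under median centring, SCPL26 in ubc13A was -0.0015 with array weights, and leaving out 1 array gave -0.064 to 0.033 for SCPL49 in Col-0, -0.058 to 0.19 for SCPL49 in CsUBC13-OE, -0.24 to 0.10 for SCPL48 in Col-0 and -0.045 to 0.12 for SCPL26 in ubc13A. Median centring moved the share of higher calls among all probe sets from 40.6% to 58% for the average. The alternative of the dimmest probe set per gene was not run, since each member has 1 probe set. No detection calls were used, so the 13 dim members have no stated limit of detection.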

Other observations

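A pair of probe sets was shared by an SCPL gene and another gene and stayed outside the family count. The one shared by SCPL36 and SCPL37 gave signals of 5 at most on any array. The one shared by SCPL39 and AT3G56540 gave 20.2 at most.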
